A study of Homo sapiens with 12 samples.

Results

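IFI16, AIM2, TMEM173 (STING), TBK1, TREX1 and SAMHD1 are genes of the cytosolic DNA sensing pathway and of its control, 6 of 60099 genes listed. They were found by gene symbol, and all 6 passed the filter on low counts.

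Cells that find DNA in their cytosol, where DNA does not belong, answer with interferon and inflammation. Cyclic GMP-AMP synthase (cGAS, listed here as MB21D1) turns such DNA into a small cyclic messenger that binds the membrane adaptor STING, encoded by TMEM173. STING then recruits the kinase TBK1, which activates the transcription factor IRF3 and so the genes of type I interferon. IFI16 and AIM2 are DNA-binding sensors of the PYHIN family, and AIM2 assembles an inflammasome that activates caspase-1. TREX1, a DNA exonuclease, and SAMHD1, an enzyme that breaks down deoxynucleotides, limit the nucleic acid that can set off this response. In squamous epithelium these genes are known as part of the cell's own antiviral defence.

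RNA was sequenced from Cal27 and HN30, established cell lines of head and neck squamous cell carcinoma (HNSCC), kept without IFNα or given 20 or 200 ng/ml IFNα for 24 h. IFNα is a type I interferon that acts through its receptor and STAT proteins. The 12 samples carry the letters A to F and a replicate number of 1 or 2. The controls were A and D, the dose of 20 ng/ml was given to B and E, and that of 200 ng/ml to C and F. The letters of one line are not tied to it by name, so the line sets A-C and D-F stand for the lines, and each set holds every dose with 2 samples. Nothing states whether replicates were separate cultures, so p-values measure the spread between these samples, which may be technical.

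Estimated counts summed to between 12670755 and 16056734 in the controls and to between 10517448 and 11854183 in the samples at 200 ng/ml, so depth moved with dose. Samples of one line set correlated more closely (Pearson's r across 13034 genes from 0.944 to 0.979) than samples of different sets (0.722 to 0.758). As averages over both line sets, all 20 interferon-stimulated genes used to check the doses were higher at 200 ng/ml, beside 4.98% of all genes tested. All 20 were also higher at 20 ng/ml, beside 2.33%. The 8 squamous epithelial markers summed to between 1186 and 3350 TPM per sample, where TPM is a transcript level scaled for transcript length and for depth. The sum of 10 haematopoietic markers was between 8.67 and 43.7 TPM and was higher in treated samples of each line set, mostly through CD68. Among these genes, CD68 had 84 to 475 counts and CSF1R 40 to 95 in every sample, whereas CD14 had 0 to 44 and ITGAM 0 to 25. PTPRC and LYZ had at most 2 counts in any sample, and CD3E, MS4A1 and NKG7 had 0. The 6 fibroblast markers summed to between 5.54 and 15.3 TPM. In these bulk samples, fewer cells that express a gene and less RNA per cell cannot be told apart.

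The upstream sequences of 3 of the genes are shown because AIM2, IFI16 and SAMHD1 had the largest changes with IFNα. Each is the 250 bases before a RefSeq transcription start (GRCh38.p14), read 5′ to 3′ on the gene's strand. Capitals mark the only matches found on either strand to the core of the interferon-stimulated response element, which is GAAA, any 2 bases and GAAA, or to a form with 1 base less in its middle, GAAANGAAA. The shorter form was added after the sequences had been seen.

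AIM2 (chr1:159076767-159077016, minus strand): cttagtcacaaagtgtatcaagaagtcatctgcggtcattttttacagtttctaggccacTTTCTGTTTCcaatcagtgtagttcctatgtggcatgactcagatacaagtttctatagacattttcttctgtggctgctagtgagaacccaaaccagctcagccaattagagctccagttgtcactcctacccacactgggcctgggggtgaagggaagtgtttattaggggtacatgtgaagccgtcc
IFI16 (chr1:159009657-159009906, plus strand): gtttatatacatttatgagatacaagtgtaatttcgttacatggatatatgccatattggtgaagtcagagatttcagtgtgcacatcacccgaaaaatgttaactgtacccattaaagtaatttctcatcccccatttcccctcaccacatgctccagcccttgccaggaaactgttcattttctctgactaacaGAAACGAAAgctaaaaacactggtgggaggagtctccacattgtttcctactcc
SAMHD1 (chr20:36951709-36951958, minus strand): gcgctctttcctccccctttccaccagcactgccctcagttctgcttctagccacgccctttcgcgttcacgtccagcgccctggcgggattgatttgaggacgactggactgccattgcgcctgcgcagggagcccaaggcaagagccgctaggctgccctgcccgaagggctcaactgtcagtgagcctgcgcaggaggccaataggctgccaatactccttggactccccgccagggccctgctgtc

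The AIM2 sequence held 1 match to the response element core, on the other strand, beginning 190 bases before the start. The second of 2 IFI16 starts had 1 match to GAAANGAAA, 54 bases before the start, and the SAMHD1 sequence had neither. The core was present in 3.02% and GAAANGAAA in 2.69% of 35116 RefSeq sequences of this length. No match to either, or to the gamma-activated site TTCNNNGAA (6.57% of the same sequences), was found for TBK1, TREX1 or the first start of IFI16. TMEM173 had no entry in the table of promoters. A match describes letters in this window and was not tested as a binding site.

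At 200 ng/ml IFNα, SAMHD1, AIM2, IFI16 and TBK1 were higher than in the controls, and TMEM173 and TREX1 did not pass the test. SAMHD1 rose 6.56-fold, AIM2 3.59-fold, IFI16 2.64-fold and TBK1 1.35-fold, as averages over both line sets (edgeR quasi-likelihood test on estimated counts, Benjamini-Hochberg adjustment over 19944 genes, threshold 0.05). These 4 of 6 genes stand beside 4.98% of all tested genes that were higher at this dose. The 3 genes that rose at least 2-fold stand beside 1.58%. At 20 ng/ml the same 4 genes were higher, beside 2.33% of all genes, and 3 of them by at least 2-fold, beside 0.963%. Both doses were compared with the same controls. The 6 genes were chosen with earlier results of these data known, so these counts describe them and do not test the pathway.

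**Figure D1:**
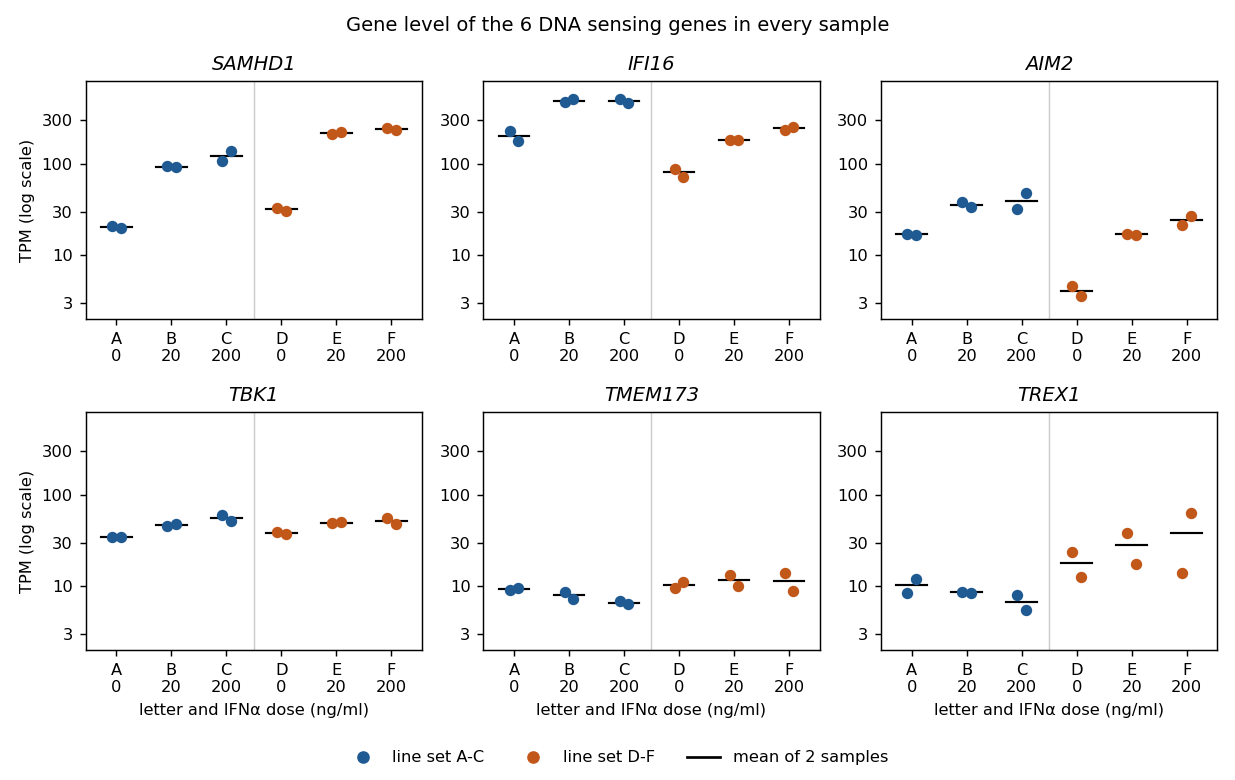
Gene level of the 6 genes in TPM on a log axis against sample letter and IFNα dose in ng/ml, with 1 point per sample, the mean of 2 samples as a bar, and a colour for each line set. SAMHD1, IFI16 and AIM2 lie higher in every treated sample than in the controls of their line set, whereas TREX1 overlaps in both sets and TMEM173 in D-F.

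IFI16 (ENSG00000163565, chromosome 1, 158999968 to 159055155, plus strand, GRCh38.p10) is the sensor with the highest level of the 6 genes in both controls. Its level was 228 and 177 TPM in control A, 476 and 504 TPM at 20 ng/ml in B, and 506 and 465 TPM at 200 ng/ml in C. In the other line set it was 88.4 and 72.3 TPM in control D, 182 and 184 TPM in E, and 235 and 254 TPM in F. Within each set all treated samples lay above both controls, while the treated samples of D-F overlapped with the controls of A-C. The log2 fold change was 1.40 at 200 ng/ml (SE 0.07, adjusted p = 9.61e-07) and 1.21 at 20 ng/ml (SE 0.07, adjusted p = 3.44e-06).

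AIM2 (ENSG00000163568, chromosome 1, 159062484 to 159147096, minus strand) lies next to IFI16 and was the lowest of the 6 genes in control D. It had 17.2 and 16.7 TPM in control A, 38.0 and 33.2 TPM in B, and 31.7 and 47.3 TPM in C. Its level was 4.56 and 3.58 TPM in control D, 17.1 and 16.8 TPM in E, and 21.5 and 26.9 TPM in F. The treated samples exceeded the controls of their own set, and the 20 ng/ml samples of D-F reached about the level of the untreated samples of A-C. The log2 fold change was 1.85 at 200 ng/ml (SE 0.15, adjusted p = 6.75e-05) and 1.52 at 20 ng/ml (SE 0.15, adjusted p = 0.000356). The fewest counts behind these values were 50, in control D.

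TMEM173 (ENSG00000184584, chromosome 5, 139475534 to 139482935, minus strand), which encodes STING, was expressed at between 6.37 and 13.9 TPM in the 12 samples, from 86 to 157 counts. It had 9.11 and 9.54 TPM in control A, 8.60 and 7.30 TPM in B, and 6.92 and 6.37 TPM in C. In D-F the values were 9.51 and 11.1 TPM without IFNα, 13.3 and 10.05 TPM at 20 ng/ml, and 13.9 and 8.88 TPM at 200 ng/ml. The treated samples of A-C lay below their controls, and those of D-F lay on both sides of theirs. At 200 ng/ml the log2 fold change stood at -0.18 (SE 0.13, adjusted p = 0.422), with a 95% interval from 0.725-fold to 1.07-fold. With 20 ng/ml it was -0.13 (adjusted p = 0.682), with an interval from 0.752-fold to 1.11-fold.

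TBK1 (ENSG00000183735, chromosome 12, 64451880 to 64502108, plus strand) is the kinase that STING recruits. It had 34.8 and 34.2 TPM in control A, 46.0 and 48.3 TPM in B, and 60.2 and 51.4 TPM in C. In control D it had 39.4 and 37.5 TPM, in E 48.8 and 50.5 TPM, and in F 55.6 and 47.5 TPM. Every treated sample lay above every control, by a small margin. On counts, the log2 fold change was 0.43 at 200 ng/ml (SE 0.07, adjusted p = 0.00533) and 0.32 at 20 ng/ml (SE 0.07, adjusted p = 0.0379). The call at 20 ng/ml was lost in 14 of 20 alternatives, among them those without sample A1, A2, B1, B2, C2, D1, D2, E2, F1 or F2 (adjusted p from 0.0502 to 0.135), and the values stayed between 0.25 and 0.41.

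SAMHD1 (ENSG00000101347, chromosome 20, 36890229 to 36951843, minus strand) had the largest change of the 6 genes. Its level was 20.6 and 19.9 TPM in control A, 93.3 and 91.9 TPM in B, and 106 and 137 TPM in C. It was 33.1 and 30.5 TPM in control D, 209 and 221 TPM in E, and 243 and 233 TPM in F. Treated and untreated samples did not overlap, also across the line sets. The log2 fold change was 2.71 at 200 ng/ml (SE 0.08, adjusted p = 1.95e-08) and 2.44 at 20 ng/ml (SE 0.08, adjusted p = 5.26e-08).

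TREX1 (ENSG00000213689, chromosome 3, 48465811 to 48467645, plus strand) had the widest spread between replicates. It had 8.37 and 12.1 TPM in control A, 8.72 and 8.48 TPM in B, and 8.05 and 5.55 TPM in C. The D-F values were 23.6 and 12.6 TPM in control D, 38.6 and 17.6 TPM in E, and 14.0 and 63.4 TPM in F. Groups overlapped within D-F, where the 2 samples of F differed by more than the means of any letters. With 200 ng/ml the log2 fold change stood at 0.31 (SE 0.46, adjusted p = 0.758), with a 95% interval from 0.611-fold to 2.52-fold that includes a rise of 2-fold. Without sample F2 the value was -0.31.

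A second row, AC134772.2 (chromosome 3, 48446846 to 48467645, plus strand), spans the whole of TREX1 on the same strand, so reads from shared exons could be given to either. TREX1 held 35.3% of the summed counts of both rows in F1 and 92.5% in C1. Sample F1 had 104 counts for TREX1 and 191 for AC134772.2, whereas F2 had 395 and 35. The summed counts were 295 in F1 and 430 in F2, closer than the TREX1 counts alone. In control D the sums were 225 and 133, against TREX1 counts of 197 and 92. In control A the sums of 78 and 179 lay further apart than the TREX1 counts of 72 and 118, the only letter where this was so. With the rows summed, an alternative chosen after seeing the data, the log2 fold change at 200 ng/ml was 0.35 (adjusted p = 0.456) over both sets. It was -0.63 (adjusted p = 0.367) in A-C and 1.33 (adjusted p = 0.0591) in D-F, and none of these passed the threshold.

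**Figure D2:**
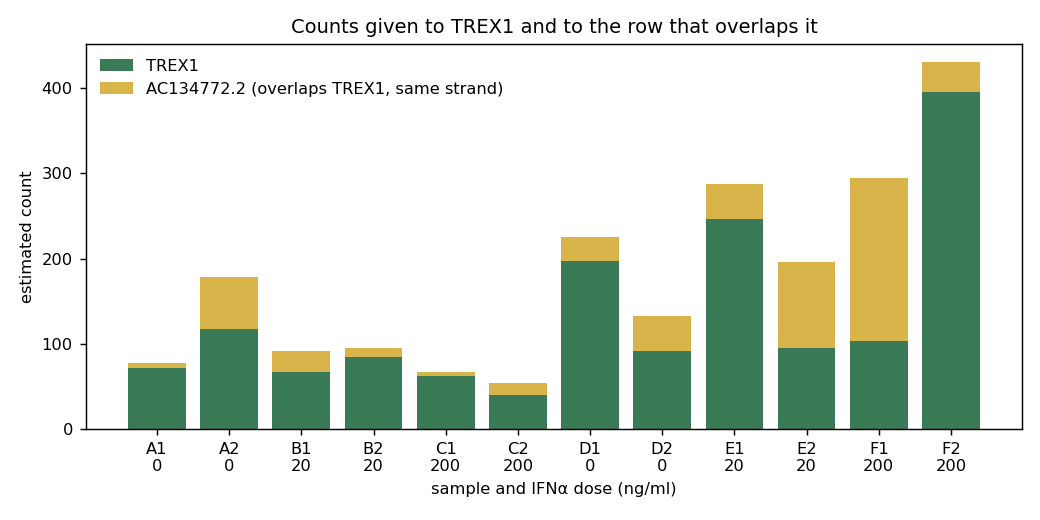
Estimated counts of TREX1 and of the overlapping row AC134772.2, stacked, in each of the 12 samples with the IFNα dose in ng/ml. The division between the rows differs between replicates, as in F1 (104 and 191) and F2 (395 and 35).

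The doses of 20 and 200 ng/ml were then compared directly, to ask whether the higher dose added to the change. None of the 6 genes passed this test (edgeR), beside 0.135% of all genes, and DESeq2 also called 0. At an unadjusted p under 0.05 there were 3 of the 6, beside 9.26% of all genes, with log2 differences of 0.28 for SAMHD1 (adjusted p = 0.290), 0.19 for IFI16 (adjusted p = 0.416) and 0.32 for AIM2 (adjusted p = 0.539). The 95% intervals of these differences reached 1.35-fold for SAMHD1, 1.27-fold for IFI16 and 1.56-fold for AIM2. Without sample C1, SAMHD1 passed (log2 difference 0.35, adjusted p = 0.0442).

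Before treatment the line sets differed in the sensors and in SAMHD1. AIM2 was 4.51-fold lower in control D than in control A (log2 -2.17, SE 0.22, adjusted p = 4.40e-05), and IFI16 was 2.60-fold lower (log2 -1.38, SE 0.10, adjusted p = 3.56e-06). SAMHD1 was 1.44-fold higher in control D (log2 0.53, SE 0.11, adjusted p = 0.00254). These 3 of 6 genes stand beside 46.4% of all genes that differed between the controls, a share near the background. Of the 20 interferon-stimulated genes used to check the doses, 16 were lower in control D and 2 were higher. Their median log2 difference was -0.88, beside 0.01 over all genes tested, so a lower level in control D was not particular to AIM2 and IFI16. The log2 differences of TBK1 (-0.05, adjusted p = 0.697), TMEM173 (0.02, adjusted p = 0.928) and TREX1 (0.50, adjusted p = 0.558) did not pass, with 95% intervals of 0.824 to 1.13-fold, 0.775 to 1.33-fold and 0.524 to 3.80-fold.

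By mean TPM, the order in control A was IFI16, TBK1, SAMHD1, AIM2, TREX1 and TMEM173, with means of 203, 34.5, 20.3, 16.9, 10.3 and 9.32 TPM. Of these neighbours, only TREX1 and TMEM173 overlapped in their 2 samples. In control D the order was IFI16, TBK1, SAMHD1, TREX1, TMEM173 and AIM2, with means of 80.4, 38.4, 31.8, 18.1, 10.3 and 4.07 TPM, and no neighbours overlapped. At 200 ng/ml, SAMHD1 had passed TBK1 in both sets, with 121 ± 21.8 TPM in C and 238 ± 6.96 TPM in F (SD, n = 2). In F its samples lay on the same level as those of IFI16, at 244 ± 13.6 TPM, and the 2 genes overlapped. In E it lay above IFI16, with 209 and 221 TPM against 182 and 184 TPM.

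Within A-C alone, the 4 genes that were higher over both sets were also higher at 200 ng/ml, beside 3.58% of all genes. Within D-F there were 3, beside 3.44%, and TBK1 did not pass there (log2 0.29, adjusted p = 0.145). Leaving out sample A2 ended the A-C calls of AIM2 (log2 1.21, adjusted p = 0.0703) and TBK1 (log2 0.50, adjusted p = 0.0972). At 20 ng/ml, SAMHD1, IFI16 and AIM2 were higher in A-C, beside 0.913% of all genes, and in D-F, beside 2.15%. The AIM2 call at 20 ng/ml in A-C (log2 1.07, adjusted p = 0.0421) was lost in 11 of 17 alternatives, among them those without sample A1, A2, B1, B2, D1, D2, E1, E2, F1 or F2 (adjusted p from 0.0530 to 0.222).

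**Figure D3:**
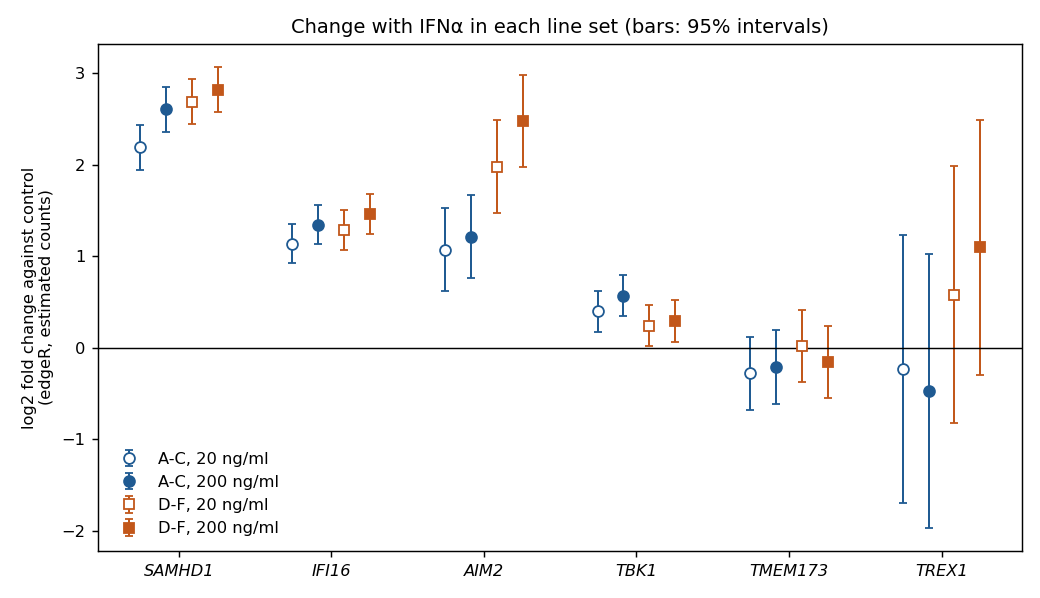
Log2 fold change of each gene against the control of its line set at 20 ng/ml (open symbols) and 200 ng/ml (filled symbols), from edgeR on estimated counts, with 95% intervals as bars. AIM2 reads 1.21 in A-C and 2.48 in D-F at 200 ng/ml, and the TREX1 bars are the widest.

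The difference of the IFNα effect between the line sets was tested as an interaction. No gene of the 6 passed with edgeR at 200 ng/ml, beside 1.88% of all genes, or at 20 ng/ml, beside 0.371%. At an unadjusted p under 0.05 there was 1 of 6 at the higher dose, AIM2, beside 17.7% of all genes, a share near the background. At the lower dose there were 2, AIM2 and SAMHD1, beside 10.5%. AIM2 rose 2.32-fold in A-C and 5.57-fold in D-F at 200 ng/ml, a log2 difference of 1.27 (SE 0.30, adjusted p = 0.0687). DESeq2 called this difference (log2 1.24, adjusted p = 0.0174), as did edgeR without sample C2 (log2 1.58, adjusted p = 0.0382), and over all alternatives it lay between 1.01 and 1.58 (adjusted p from 0.0174 to 0.211). At 20 ng/ml the log2 difference was 0.91 for AIM2 (adjusted p = 0.310) and 0.50 for SAMHD1 (adjusted p = 0.248). Of the 20 interferon-stimulated genes used to check the doses, 12 had a larger effect in D-F at 200 ng/ml and 1 a smaller one, beside 1.88% of all genes in either direction. Their median log2 difference was 0.80, beside 0.03 over all genes tested. The part of this wider difference in the AIM2 values was not tested. The sum of the haematopoietic markers also rose more in D-F, from between 8.67 and 10.9 TPM to between 40.4 and 43.7 TPM, than in A-C, from between 12.8 and 15.8 TPM to between 20.4 and 21.0 TPM. CD68, a lysosomal protein, made up most of that sum, with 5.29 and 6.45 TPM in control D and 36.1 to 39.6 TPM in F. Its part in the AIM2 values was not tested.

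Transcript counts show which transcripts carried each gene's value. Of 28 transcripts of the 6 genes that passed the filter, 2 were higher at 200 ng/ml, beside 0.372% of 75876 transcripts tested. SAMHD1-201, the coding transcript that held 94.8% to 99.2% of the SAMHD1 TPM, rose by 2.66 on the log2 scale (SE 0.09, adjusted p = 4.23e-05). AIM2-202, the coding transcript with 95.5% to 100% of the AIM2 TPM, rose by 1.78 (SE 0.21, adjusted p = 0.0147). The count of 2 became 1 without sample A1, A2, D1, D2 or F2.

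The IFI16 level was divided between several coding transcripts, and none of the 12 tested passed although the gene did. IFI16-201 held between 9.02% and 71.3% of the IFI16 TPM, IFI16-208 between 8.08% and 48.6%, IFI16-209 between 1.65% and 34.9%, and IFI16-203 between 0% and 16.7%. The division differed between replicates of 1 letter as well as between letters. The log2 fold changes at 200 ng/ml were 1.41 for IFI16-201 (SE 0.46, adjusted p = 0.422), 1.02 for IFI16-208 (SE 0.50, adjusted p = 0.612) and 2.02 for IFI16-209 (SE 0.82, adjusted p = 0.534). These counts are estimates, since the transcripts share exons.

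**Figure D4:**
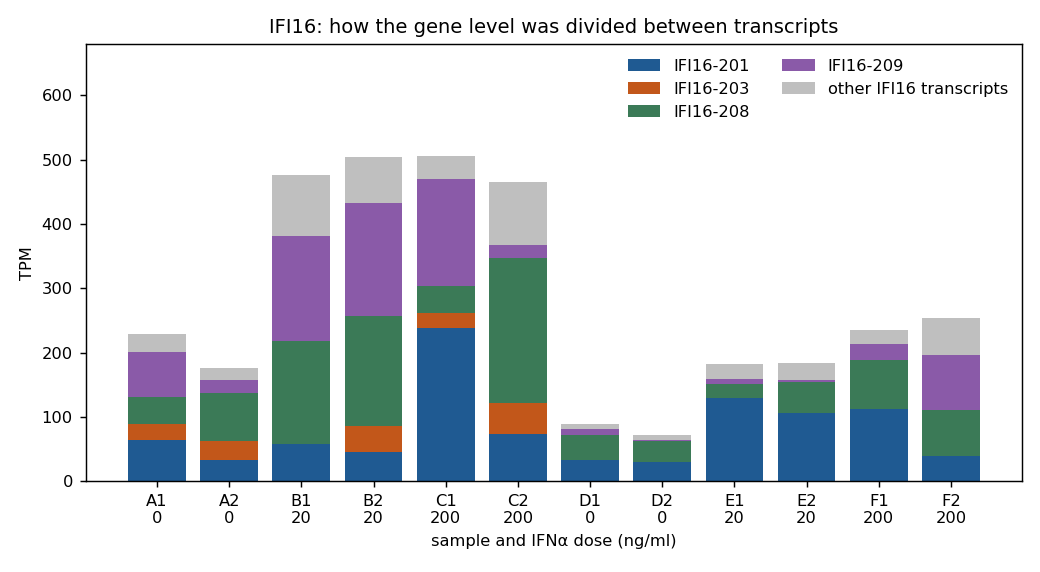
TPM of IFI16 in each sample with the IFNα dose in ng/ml, divided between its 4 named transcripts and the rest. The total is higher in treated samples of each line set, while the share of IFI16-201 ranges from 9.02% to 71.3%.

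TBK1-201, the coding transcript, held 61.6% to 81.6% of the TBK1 TPM, and its log2 value was 0.35 (SE 0.11, adjusted p = 0.435). The rest lay mainly in the retained-intron transcripts TBK1-206 (8.44% to 16.2%) and TBK1-207 (2.82% to 14.2%). For TMEM173, 7 transcripts reached 10% of the gene's TPM in at least 1 letter group. The coding TMEM173-201 held between 3.15% and 52.1%, and the retained-intron TMEM173-206 between 11.6% and 42.5%, each with at most 90 counts. TMEM173-201 had a log2 fold change of 0.26 (SE 0.71) and TMEM173-206 of -0.26 (SE 0.29), and neither passed. Of the TREX1 TPM, ENST00000629913 held 13.7% to 98.5%.

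The other genes of the pathway were taken from 6 lists with 75 genes, of which 68 passed the filter. The lists were chosen with earlier results of these data known, so their counts are a description and do not test the pathway. With 200 ng/ml 15 were higher, beside 4.98% of all genes, 1 was lower, beside 4.57%, and 52 did not pass. Of the 15, 8 were higher by at least 2-fold, beside 1.58% of all genes. The median log2 fold change over the 68 genes was 0.06, beside -0.01 over all genes tested. With 20 ng/ml 13 were higher, beside 2.33%, and 1 was lower, beside 1.6%, with a median of 0.12 beside -0.01. The IFNα effect differed between line sets at 200 ng/ml for 7 of the 68 genes, beside 1.88% of all genes, a count that lay between 1 and 13 over the alternatives.

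Among 13 tested DNA sensors and PYHIN relatives, 2 were higher at 200 ng/ml, beside 4.98% of all genes, and 1 was lower, beside 4.57%. MB21D1, which encodes cGAS, went from 29.8 ± 4.77 TPM in the controls to 48.6 ± 4.81 TPM (SD, n = 4 over both line sets), or 0.62 on the log2 scale by edgeR (SE 0.11, adjusted p = 0.00776). Its call at 20 ng/ml (log2 0.50, adjusted p = 0.0374) was lost in 13 of 20 alternatives, among them those without sample A1, A2, B1, B2, D1, D2, E2, F1 or F2 (adjusted p from 0.0631 to 0.137). ZBP1, a sensor of Z-form nucleic acid, had 1 to 13 counts in the controls and 279 to 513 at 200 ng/ml (log2 5.998, SE 0.30, adjusted p = 1.41e-06). With so few control counts its fitted value depends on the prior count, and it lay between 4.92 (limma, pseudocount 1) and 7.08 (without sample D1). PRKDC, the catalytic subunit of a DNA-dependent kinase of end joining, fell by 0.66 on the log2 scale (SE 0.05, adjusted p = 2.74e-05). The PYHIN relatives MNDA and PYHIN1 had at most 2 counts in any sample and were not tested.

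**Figure D5:**
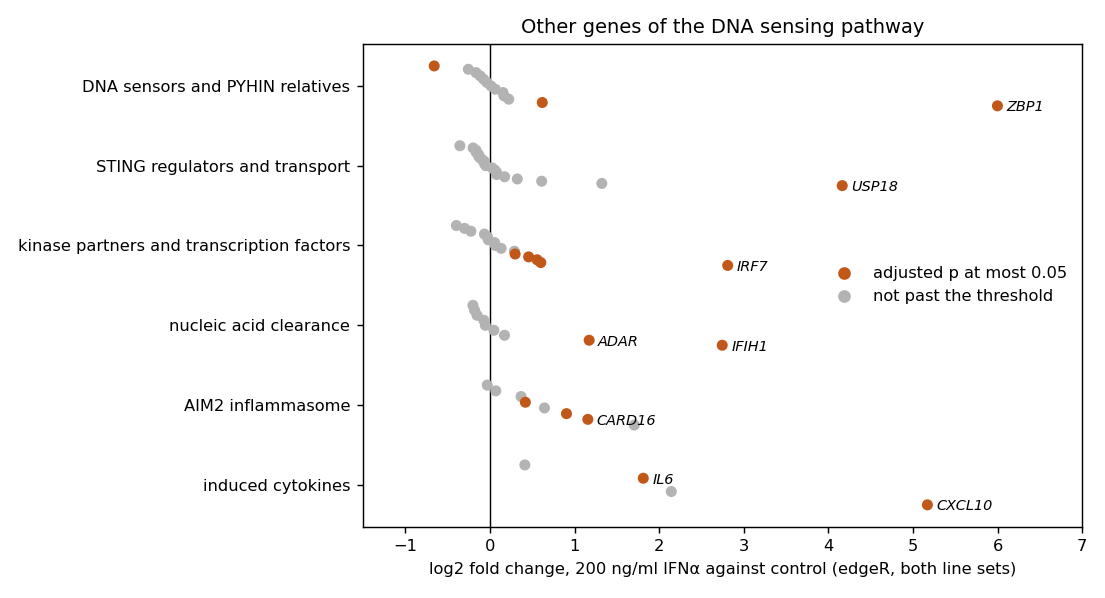
Log2 fold change at 200 ng/ml IFNα against the controls (edgeR, both line sets) for the 68 tested pathway genes, 1 point per gene in 6 lists, coloured where the adjusted p was at most 0.05. Most points lie near 0, and ZBP1 (5.998), CXCL10 (5.17), USP18 (4.16), IRF7 (2.81) and IFIH1 (2.75) lie far to the right.

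Of 19 STING regulators and transport genes, 1 was higher, a share near the 4.98% of all genes. It was USP18, a protease that removes ISG15 (log2 4.16, SE 0.11, adjusted p = 1.37e-08). Of 15 kinase partners and transcription factors, 5 were higher, beside the same 4.98%. IRF7, the interferon-inducible relative of IRF3, rose by 2.81 on the log2 scale (SE 0.16, adjusted p = 3.26e-06), from 8.84 ± 4.20 to 72.5 ± 54.5 TPM (SD, n = 4). These 4 samples pool both line sets, so the SD includes any difference between the sets. IRF3, the direct target of TBK1, stood at 0.06 on the log2 scale (SE 0.10, adjusted p = 0.821). IKBKE, the kinase closest to TBK1, rose by 0.46 over both sets (SE 0.08, adjusted p = 0.00926), a call lost with limma on TPM (0.41 and 0.40 at pseudocounts of 0.1 and 1). The log2 value was -0.07 in A-C and 0.98 in D-F, and the effect of IFNα on IKBKE differed between the sets (log2 difference 1.05, SE 0.17, adjusted p = 0.0212), a call lost without sample A2, C2, D1, D2 or F1 (log2 difference 0.92 to 1.06, adjusted p from 0.0579 to 0.0801). AZI2 (log2 0.60), OPTN (0.56) and STAT6 (0.30), which are a TBK1 adaptor, an autophagy receptor that binds TBK1 and a transcription factor, were the other higher genes (adjusted p from 0.00608 to 0.0144). The AZI2 call was lost without sample A2, D2 or F2 (adjusted p from 0.0515 to 0.0606) and with limma on TPM (log2 0.91 and 0.87 at pseudocounts of 0.1 and 1, adjusted p = 0.125 and 0.118).

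At the higher dose, 2 of 9 tested nucleic acid clearance genes were higher than in the controls, beside 4.98% of all genes. ADAR, which edits double-stranded RNA, rose by 1.17 (SE 0.06, adjusted p = 1.46e-06), and IFIH1, an RNA sensor, by 2.75 (SE 0.08, adjusted p = 1.42e-08). RNASEH2A, RNASEH2B and RNASEH2C, the subunits of ribonuclease H2, had log2 fold changes of -0.15, -0.05 and -0.07 and did not pass (adjusted p from 0.227 to 0.840). The RNASEH2B value was 0.26 with limma on log2(TPM + 0.1).

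Of 8 tested genes of the AIM2 inflammasome, 3 were higher at 200 ng/ml, beside 4.98% of all genes. CASP1, the protease it activates, rose by 0.90 (SE 0.09, adjusted p = 0.000207). CARD16, a caspase-1 relative without the protease domain, rose by 1.16 (SE 0.24, adjusted p = 0.0153), a call lost without sample D2 (log2 0.94, adjusted p = 0.0511) or F1 (log2 1.06, adjusted p = 0.0606). IL1B, a cytokine that caspase-1 matures, rose by 0.42 (SE 0.06, adjusted p = 0.00222). PYCARD, the adaptor between AIM2 and caspase-1, had 11.5 ± 2.02 TPM in the controls and 11.95 ± 2.65 TPM at 200 ng/ml (SD, n = 4 over both line sets), or -0.03 on the log2 scale by edgeR (SE 0.20, adjusted p = 0.983). Of 6 cytokines that the pathway induces, 4 were tested and 2 were higher, beside the same 4.98%. IFNB1, with 0 to 4 counts in every sample, and IFNL1, with 0 to 8, were not tested. IL6 rose by 1.81 (SE 0.17, adjusted p = 0.000142). CXCL10, a chemokine, had 0 to 23 counts in the controls and 101 to 163 at 200 ng/ml (adjusted p = 6.57e-06). Its fitted log2 value of 5.17 depends on the prior count and lay between 3.35 and 6.63 over the alternatives, the highest without sample D1. The call was lost with the line set left out of the edgeR fit (log2 4.11, adjusted p = 0.105). The chemokine CCL5, with 0 to 16 counts per sample (log2 2.14, SE 1.02, adjusted p = 0.240), and the cytokine TNF (log2 0.41, SE 0.26, adjusted p = 0.386) did not pass.

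The genes whose level was most like each of the 6 across the 12 samples, by Pearson's r of log2(TPM + 0.1) among 19491 genes, are given as a description, since the samples share dose and line set. SAMHD1 was most like DDX60 (0.998), UBE2L6 (0.991) and GBP4 (0.990). IFI16 was most like MMP13 (0.976), IL1R2 (0.972) and PML (0.972), and AIM2 was most like IL6 (0.980), EHD4 (0.979) and TXNIP (0.978). TBK1 was most like RNF213 (0.950), CHMP5 (0.947) and AC124319.4 (0.943). The closest genes were ATRAID (0.945), TACC1 (0.929) and KIF24 (0.927) for TMEM173, and DAGLB (0.945), SLX4 (0.942) and LINC01772 (0.937) for TREX1.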

How the data were processed

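RNA of 12 samples, depleted of ribosomal RNA, was sequenced on the HiseqXTen platform. The submitters' processing notes name Trimmomatic 0.36, HISAT2 2.1.0, StringTie 1.3.3b and GRCh38.p10. The authors deposited whole-number estimated counts for genes and transcripts, unscaled, which were used for tests. The deposited TPM values, scaled by the authors for length and depth, gave levels. The authors also deposited FPKM values, which were not used. Gene counts equalled the sum over their transcripts for all 60099 genes.

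Tests used edgeR 4.0.16 in R 4.3.3 (TMM, filterByExpr, quasi-likelihood, Benjamini-Hochberg) in one fit of the 6 letters, with effects averaged over the line sets. The paper's t-test was replaced by this count test, and its fold threshold of 2 was applied as an alternative. Standard errors were the size of the log2 fold change over the root of its F statistic, and intervals used the degrees of freedom of the fit. The fit was tested on simulated data. DESeq2 1.42.0 and limma 3.58.1 on log2(TPM + 0.1) or log2(TPM + 1) were alternatives, as were other filters, scalings, thresholds and left-out samples. Transcript types came from GENCODE release 29, and promoter sequences from RefSeq (GRCh38.p14). Python 3.11.15 was used for tables and figures.

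The 6 genes and the lists were chosen with earlier results of these data known. The text names all 6 genes, pathway genes past the threshold with a fold of at least 2 at 200 ng/ml, and a set of pathway genes whatever their result. PRKDC, IL1B, AZI2, OPTN, STAT6, MNDA, PYHIN1, IFNL1, CCL5 and TNF were named after their values were seen. Transcripts were named from 10% of a gene's TPM in any letter group, and the 3 most alike genes from a mean of at least 1 TPM. Depth limits genes with few counts. Replicates of 1 letter differed by more than sampling noise (chi-square over its degrees of freedom from 14.4 to 19.8), and all were kept. Estimated counts also carry noise from read assignment, so this does not show separate cultures. The values of 1 haematopoietic marker are not reported here.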

Additional observations from a re-analysis of the deposited data

Results flagged for a closer look

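The TREX1 level of sample F2, at 63.4 TPM, lay far from the other 3 samples at 200 ng/ml, with a gap to the nearest of 0.853 of the group's range. It was the only such value among 18 groups of 4 samples examined. Chance marks about 1 in 20 groups where all 4 values come from a single population. Each group here pools both line sets, so that rate need not hold. The group holds samples of both line sets, C and F. In the same sample the overlapping row AC134772.2 had 35 counts, against 191 in F1, and the part of this division in the TREX1 value was not tested.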

How the results depend on the processing

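By adjusted p, SAMHD1 was called at 200 ng/ml in every alternative run, and IFI16, AIM2 and TBK1 in every one but that which left the line set out of the fit. Without the line set, 1 of the 6 genes was called at 200 and 1 at 20 ng/ml, and 4 and 3 of the pathway genes, where the differences between lines enter the spread. With the compared letters alone, 2 of the 6 genes were called at 200 ng/ml in A-C and 1 of their transcripts. With DESeq2, 1 of the 6 genes and 13 pathway genes differed between line sets, and 5 transcripts were called. The shares of all genes and transcripts given with the main edgeR counts do not apply to these DESeq2 counts. Nor do they apply to the counts without the line set or with the compared letters alone. These counts show how the calls moved and are not read against a share. With a fold of at least 2 added, the pathway counts were 8 at 200 ng/ml, beside 1.58% of all genes, and 6 at 20 ng/ml, beside 0.963%. For the difference between sets the count was 3, all with the larger value in D-F, beside 124 of 19944 genes. With the unadjusted p and that fold they were 9, 8 and 11, with 1 of the 6 genes differing between sets and 10 transcripts called. No share of all genes or transcripts is given here for that rule, so these counts are not read as results about the genes. By unadjusted p under 0.05 alone, 17.7% of all genes differed between sets at 200 ng/ml.

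Leaving out 1 sample at a time gave 4 of the 6 genes at 200 ng/ml in every case and 3 to 4 at 20 ng/ml. It gave 0 to 1 between the doses, 3 in every case between the controls, 0 to 1 and 0 for the difference between sets at 200 and 20 ng/ml, 2 to 4 and 2 to 3 at 200 and 20 ng/ml in A-C, and 3 in every case in D-F. The pathway counts were 14 to 17 at 200 ng/ml, 9 (without B1) to 14 at 20 ng/ml, and 1 to 8 for the difference between sets, and 1 to 3 transcripts were called. That pathway difference, 7 in the full data, was 1 without A2, C2, D2 or F1, 2 without D1 or F2, 3 without E1, and 4 without B1, B2 or E2.

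Deviations of same-numbered samples correlated between -0.05 and 0.06 in 6 pairs of letters, so they shared little deviation across genes. This does not show whether same-numbered samples were handled together. In a fit with the replicate block, 4 of the 6 genes were called at 200 ng/ml, 3 at 20 ng/ml and 2 at 20 ng/ml in A-C. The pathway difference between sets was 1 gene and the transcripts 1, the call of IKBKE for that difference was lost (log2 1.05, adjusted p = 0.0669), and no other count moved by over 1.5 times.

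Only log2 values that had not passed the test changed sign. They were TMEM173 at 20 ng/ml in D-F with no filter on counts (-0.00384), RNASEH2C at 20 ng/ml with DESeq2 size factors (0.00162), and, with limma at pseudocounts 0.1 and 1, RNASEH2A at 20 ng/ml (0.0487 and 0.0482), RNASEH2B (0.26 and 0.25) and PYCARD (0.0453 and 0.0430) at 200 ng/ml. With 1 sample left out, TREX1 ranged from -0.31 to 0.64 at 200 and from -0.27 to 0.52 at 20 ng/ml, from -0.49 to 0.58 between doses, from -0.18 to 0.95 between controls, from -0.13 to 1.45 for the difference between sets at 20 ng/ml, and in D-F from -0.15 to 1.76 and from -0.34 to 1.24. TMEM173 ranged from -0.0540 to 0.10 between controls, from -0.0745 to 0.16 for the difference between sets at 200 ng/ml and from -0.0775 to 0.0983 at 20 ng/ml in D-F, and TBK1 from -0.12 to 0.00704 between controls. At 200 ng/ml IRF3 ranged from -0.0515 to 0.14, RNASEH2B from -0.13 to 0.0138, RNASEH2C from -0.17 to 0.00852 and PYCARD from -0.21 to 0.10, and at 20 ng/ml RNASEH2A from -0.0459 to 0.00102 and RNASEH2C from -0.0680 to 0.0807.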
